A study of Rattus norvegicus with 6 samples.

Results

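The 8 troponin genes of the rat were examined in thyroid RNA from rats late in pregnancy (LP) and from controls that were not pregnant (NP). They were Tnnc2, Tnni2 and Tnnt3 (fast skeletal), Tnnc1, Tnni1 and Tnnt1 (slow skeletal) and Tnni3 and Tnnt2 (cardiac), and all 8 were found by symbol among the 15388 genes of the count tables. Troponin is the calcium switch of the thin filament in striated muscle. Troponin C binds calcium, troponin I holds actin and myosin apart at rest, and troponin T fastens the complex to tropomyosin. Fast fibres, slow fibres and heart muscle use different genes for these subunits, except that slow fibres and the heart share Tnnc1. Thyroid follicular cells are not known for troponin, and in the neck striated muscle lies beside the gland. The genes were proposed with the change between LP and NP in these samples already known, so that change is described here and not tested.

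Adult Sprague-Dawley rats were used, and no genetic change or drug treatment was given for either group. NP rats were the non-pregnant controls, and LP rats were killed on day 18 of pregnancy, counted from the vaginal plug as day 1. Thyroids were snap-frozen, and polyA+ libraries were made from their total RNA, with 3 samples in each group. Neither how the gland was freed from surrounding tissue nor the cycle stage of the NP rats is stated in the sources used here.

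Between 2752144 and 3449857 reads were counted on genes per sample. A gene with 3 reads, taken as the smallest level this depth can show, lay between 0.893 and 1.08 CPM (reads relative to the TMM-adjusted total of each sample). Limits and intervals given here cover counting error only. The share of reads on Tg, the hormone precursor of follicular cells, ranged from 22.9% to 24.5%. In both groups replicates 2 and 3 agreed within sampling noise (chi-square per degree of freedom of 1.02 in NP and 0.995 in LP). They were counted as 1 sample for each mean ± SD, which therefore has n = 2. The fit did not merge them. Its standard errors, calls and adjusted p values took all 6 samples as separate, 3 in each group. Replicate 1 stood apart in both groups. The summed level of 8 smooth muscle markers was 275 CPM in NP replicate 1 and 351 CPM in LP replicate 1, against 1870 to 2055 CPM in the other samples. The labels give 3 rats in each group and call the samples repeats, without saying that each is 1 rat, so the errors given here measure the spread between libraries, which may be technical. In bulk tissue fewer cells of a type and less RNA per cell cannot be told apart.

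The 6 skeletal troponins were higher in LP than in NP, and the 2 cardiac ones overlapped between the groups. The LP over NP ratios of summed, normalised reads lay between 128 and 206 for the fast and slow genes. The slow genes had 10 reads in NP, too few to leave out a 2-fold difference between fast and slow within a subunit. The fitted log2 fold changes of the 6 skeletal genes lay between 6.76 and 7.66, with a median of 7.36, against -0.01 over all 11738 genes tested. All 6 met the criteria for a call (more than 2-fold, adjusted p under 0.05 by edgeR's quasi-likelihood test), as did 4.9% of all genes tested in this direction and 5.44% in either direction. All 6 were also more than 64-fold higher in the fit, which was true of 0.707% of genes. Every LP sample lay above every NP sample for each of the 6, as for 21.2% of all genes tested. These shares are printed for scale only, since the members were chosen on this contrast. Without replicate 1 in both groups, a setting added after the data were seen, the 6 genes still met the criteria. Only 2 of the 8 members, Tnnc2 and Tnnt2, reached the level of the filter on low counts (3.23 CPM) in every NP sample. Of the other 6, 5 passed it through the LP samples alone, and Tnni3 did not pass.

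**Figure D1:**
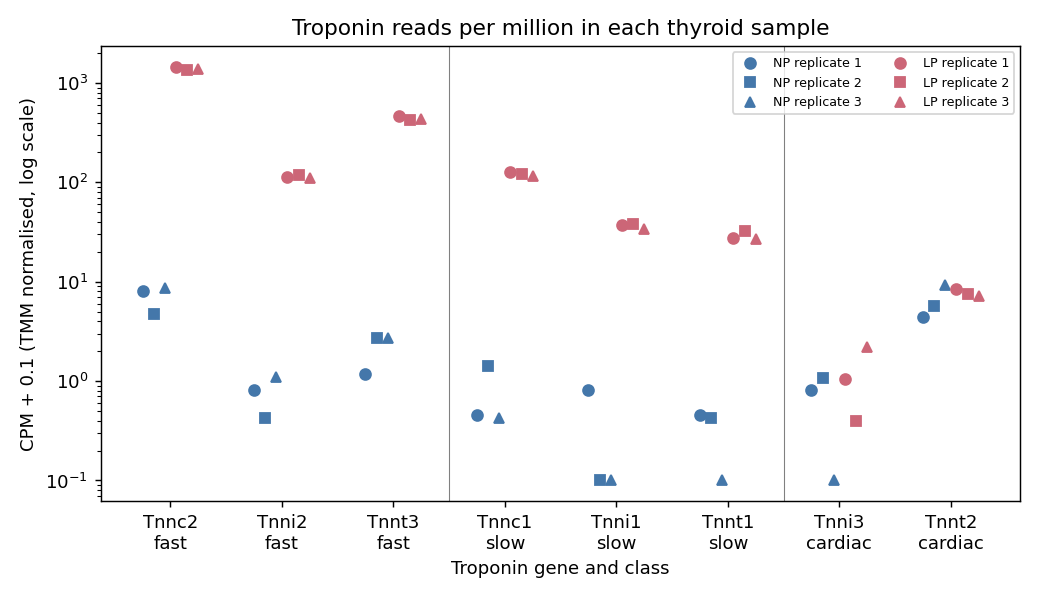
CPM of each troponin gene in each of the 6 samples, with 0.1 added, on a log axis. Colours mark NP and LP and symbols the replicate. The LP points of the 6 skeletal genes sit far above their NP points, while those of Tnni3 and Tnnt2 mix.

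Tnnc2 encodes the calcium sensor of fast fibres, and it had the highest counts of the 8 genes in LP. Tnnc2 (ENSRNOT00000020348) had 22, 14 and 26 reads in NP replicates 1, 2 and 3, and 4554, 4532 and 4641 reads in the LP replicates. The NP counts varied among themselves, whereas the LP counts were close to each other, and the groups did not overlap. Its level was 7.24 ± 0.92 CPM (SD, n = 2) in NP and 1413 ± 66.7 CPM in LP. The LP over NP ratio of the summed, normalised reads was 199.5 (95% counting interval 156 to 260.4), and the fitted log2 fold change was 7.63 (standard error 0.10).

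Tnnt3 encodes the tropomyosin-binding subunit of fast fibres. Tnnt3 (ENSRNOT00000040598) had 3, 8 and 8 reads in NP and 1453, 1436 and 1444 reads in LP. NP replicate 1 was the lowest of the NP samples, and the LP samples were nearly level. In CPM this was 1.85 ± 1.10 (SD, n = 2) against 447 ± 26.2. The ratio was 206 (counting interval 131 to 342), with a fitted log2 fold change of 7.66 (standard error 0.13).

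Tnni2 encodes the inhibitory subunit of fast fibres. Tnni2 (ENSRNOT00000076187) had 2, 1 and 3 reads in NP, at or below the detection limit, and 352, 397 and 374 reads in LP. The groups were far apart, although the NP side rests on 6 reads in all. Its level was 0.688 ± 0.041 CPM (SD, n = 2) in NP and 114 ± 1.37 CPM in LP. The ratio was 169 (counting interval 77.3 to 461), with a fitted log2 fold change of 7.32 (standard error 0.17).

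Among the slow genes, Tnnc1 encodes the troponin C of slow fibres and of the heart. Tnnc1 (ENSRNOT00000025606) had 1, 4 and 1 reads in NP and 399, 408 and 392 reads in LP. NP replicate 2 held most of the NP reads, and the LP samples agreed closely. NP replicates 1 and 3 lay below the detection limit, as did the NP mean. The level was 0.590 ± 0.328 CPM (SD, n = 2) against 123 ± 6.23 CPM, a ratio of 180.1 (counting interval 82.5 to 492) and a fitted log2 fold change of 7.41 (standard error 0.18), which became 8.31 without NP replicate 2.

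Tnni1, the inhibitory subunit of slow fibres, is also used by the heart before birth. Tnni1 (ENSRNOT00000076054) had 2, 0 and 0 reads in NP and 116, 127 and 114 reads in LP. Both NP reads came from replicate 1, so that library decides the size of the ratio. The ratio over the 3 samples was 161 (counting interval 44.2 to 1333), with a fitted log2 fold change of 7.10 (standard error 0.36). Without NP replicate 1 the NP count was 0, and LP was at least 73.5-fold higher when 3 reads over the remaining NP samples are taken as the floor. The LP level was 36.5 ± 0.926 CPM (SD, n = 2), and the NP level was below the detection limit in each sample.

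Tnnt1 encodes the slow fibre troponin T. Tnnt1 (ENSRNOT00000058843) had 1, 1 and 0 reads in NP and 86, 108 and 89 reads in LP. NP was below the detection limit in each sample, and LP replicate 2 was the highest. The LP level was 28.4 ± 1.24 CPM (SD, n = 2), with a ratio of 128 (counting interval 35.0 to 1058) and a fitted log2 fold change of 6.76 (standard error 0.36).

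The cardiac genes stood apart from these 6. Tnnt2, the troponin T of heart muscle, was counted 12, 17 and 28 times in NP and 26, 25 and 24 times in LP (ENSRNOT00000047682). The highest sample of all in CPM was NP replicate 3, and the groups overlapped. Its level was 5.86 ± 2.19 CPM (SD, n = 2) in NP and 7.81 ± 0.736 CPM in LP. The ratio was 1.19 (counting interval 0.829 to 1.70). The fitted log2 fold change of 0.25 (standard error 0.27) became -0.03 without replicate 1 in both groups.

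Tnni3 encodes the cardiac inhibitory subunit. Tnni3 (ENSRNOT00000024640) had 2, 3 and 0 reads in NP and 3, 1 and 7 reads in LP. LP replicate 3 was the highest and NP replicate 3 the lowest, and the other samples of the groups mixed. The ratio of 1.98 had a counting interval of 0.635 to 7.28, so a difference between the groups was not detectable at this depth, and a ratio as high as that of the skeletal genes lay outside the interval.

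The counting intervals of the 6 skeletal ratios all held the values from 156 to 260.4. A single LP over NP ratio for the 6 genes therefore lies within the counting error of each. These intervals treat the reads as independent and do not cover the spread between animals. Transcript lengths were not used, so levels are compared between samples for each gene, and not between genes.

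**Figure D2:**
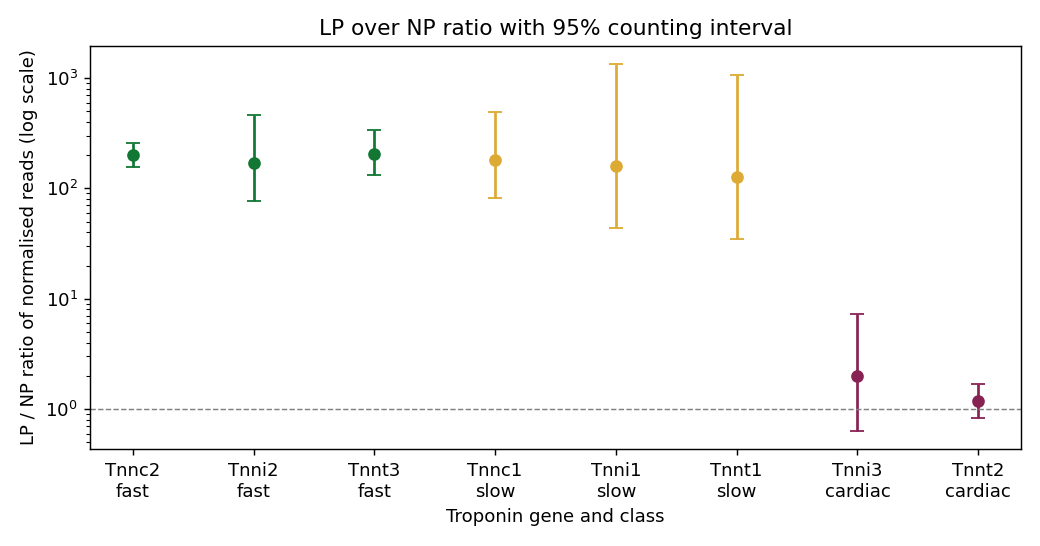
LP over NP ratio of the summed normalised reads of each troponin gene, on a log axis, with bars for the 95% counting interval and a dashed line at a ratio of 1. The fast and slow genes lie between 128 and 206 with overlapping bars, and the bars of Tnni3 and Tnnt2 cross the line.

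The fast and slow isoforms were next set against each other within each subunit. The share of reads that fell on the fast gene does not depend on the size of the library, although it depends on the lengths of both transcripts, which are the same in every sample. Over the 3 subunits together, the fast genes took 87 of 97 reads in NP, or 89.7% (95% Wilson interval 82.1% to 94.3%). In LP they took 19183 of 21022 reads, or 91.3% (90.9% to 91.6%). The fast share in LP lay within the interval of NP, while the total number of reads behind it differed by a factor of more than 100 between the groups.

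For troponin C the fast share was 91.9%, 91.7% and 92.2% in LP replicates 1, 2 and 3, and 95.7%, 77.8% and 96.3% in the NP replicates. The NP values scattered on both sides of the LP values. The NP reads summed to 91.2% (Wilson interval 82.1% to 95.9%) and the LP reads to 92.0% (91.5% to 92.4%). The number of Tnnc2 reads per Tnnc1 read was 1.11 times as high in LP as in NP, with a counting interval of 0.391 to 2.56.

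For troponin I the fast share was 75.2%, 75.8% and 76.6% in the LP samples, lower than for troponin C or T in the same samples. The NP samples held 4, 1 and 3 reads, too few for a share of each. Summed, they gave 75.0% (Wilson interval 40.9% to 92.9%) against 75.9% (73.6% to 78.0%) in LP. Tnni2 reads per Tnni1 read were 1.05 times as high in LP (counting interval 0.103 to 5.90).

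For troponin T the fast share was 94.4%, 93.0% and 94.2% in the LP samples. The NP samples gave 75.0%, 88.9% and 100% from 4, 9 and 8 reads, and their sum 90.5% (Wilson interval 71.1% to 97.3%), against 93.9% (93.1% to 94.5%) in LP. The value for LP lay inside the NP interval here too. Tnnt3 reads per Tnnt1 read were 1.61 times as high in LP (counting interval 0.181 to 6.73). In none of the 3 subunits did the counting interval leave out a ratio of 1. None was narrow enough to leave out a 2-fold shift in favour of the fast or of the slow gene.

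On the scale of the fit, the fast gene exceeded the slow gene in log2 fold change by 0.22 for troponin C, 0.22 for troponin I and 0.90 for troponin T. Single NP libraries decided the sign of the first pair of values. The difference for troponin C became -0.92 without NP replicate 2, which held 4 of the 6 Tnnc1 reads. That for troponin I has no defined size without NP replicate 1, which held both Tnni1 reads, and its fitted value then turned negative. No order of fast before slow can be read from these differences.

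**Figure D3:**
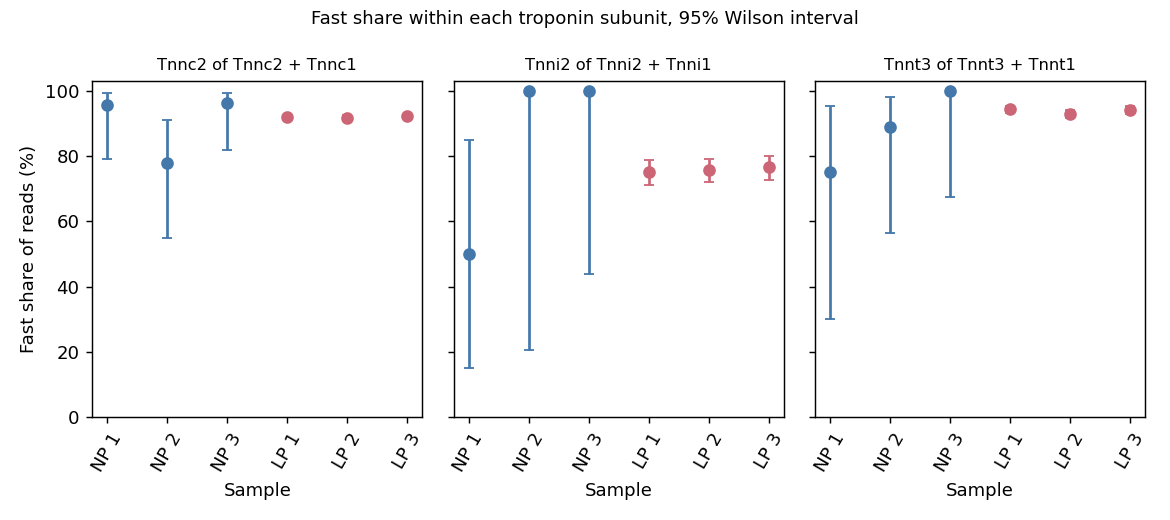
Share of reads on the fast gene (percent) within troponins C, I and T in each sample, with 95% Wilson intervals. The LP shares are tight near 92.0%, 75.9% and 93.9%, and the wide NP intervals surround them except that the NP replicate 2 interval for troponin C ends just below.

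The cardiac genes made up different parts of the troponin reads in the groups. Tnnt2 took 12 of 16, 17 of 26 and 28 of 36 troponin T reads in the NP samples, or 73.1% of their sum (Wilson interval 62.3% to 81.7%). It was the main source of troponin T reads in each NP sample. In the LP samples it took 1.66%, 1.59% and 1.54%. Tnni3 took 5 of 13 troponin I reads in NP, or 38.5% (Wilson interval 17.7% to 64.5%), and 11 of 1491 in LP, or 0.738% (0.412% to 1.32%). The counts of both cardiac genes overlapped between the groups, and the reads of the skeletal genes around them did not.

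The genes of troponins I and T lie in pairs in the genome, each pair on 1 chromosome. In the RefSeq annotation of the rat assembly GRCr8, which is another build than that of the counts, Tnni3 and Tnnt1 are next to each other on chromosome 1 with 0 protein-coding genes between them. Tnnt1 was higher in every LP sample, whereas its direct neighbour Tnni3 overlapped between the groups. Tnni1 and Tnnt2 lie on chromosome 13 on both sides of Lad1, and here Tnni1 was higher in LP and Tnnt2 overlapped. Tnni2 and Tnnt3, both higher in LP, lie on chromosome 1 with Lsp1 and Prr33 between them. Neighbours on the chromosome thus differed in all but the fast pair. Of the genes in between, Lsp1 (28, 90 and 83 reads in NP, 40, 93 and 104 in LP) and Lad1 (235, 204 and 180 against 188, 189 and 199) had overlapping counts or lower ones in LP, with fitted log2 fold changes of 0.09 and -0.26. Prr33 was counted 1, 3 and 1 times in NP against 51, 72 and 50 times in LP, and its fitted log2 fold change was 4.87.

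Promoters were looked at because the 6 skeletal genes moved together and the cardiac ones did not. The RefSeq promoter table of GRCr8 matched 6 of the 8 genes with 7 promoters (Tnnt2 has a pair of them), and Tnnt3 and Tnnc1 had no entry. The 250 bases before the start site are shown for the neighbours Tnni3 and Tnnt1, which differ in behaviour, and for the fast genes Tnni2 and Tnnc2. They lie at chr1:78342321-78342570 (plus strand, Tnni3), chr1:78348785-78349034 (plus, Tnnt1), chr1:207024240-207024489 (plus, Tnni2) and chr3:173935340-173935589 (minus, Tnnc2). Each is written 5′ to 3′, and capitals mark the E-box CANNTG, which muscle regulators of the MyoD family bind, and the TATA letters TATAAA, on both strands.
Tnni3: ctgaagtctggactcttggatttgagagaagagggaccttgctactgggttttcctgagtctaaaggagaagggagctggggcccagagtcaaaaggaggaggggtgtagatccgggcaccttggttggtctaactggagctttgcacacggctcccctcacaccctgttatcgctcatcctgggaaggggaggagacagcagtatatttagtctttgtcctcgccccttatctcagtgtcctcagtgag
Tnnt1: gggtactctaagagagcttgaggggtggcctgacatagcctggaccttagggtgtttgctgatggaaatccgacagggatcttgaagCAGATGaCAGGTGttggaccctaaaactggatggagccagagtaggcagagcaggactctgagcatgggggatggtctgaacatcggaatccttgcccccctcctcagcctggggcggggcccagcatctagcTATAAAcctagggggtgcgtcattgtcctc
Tnni2: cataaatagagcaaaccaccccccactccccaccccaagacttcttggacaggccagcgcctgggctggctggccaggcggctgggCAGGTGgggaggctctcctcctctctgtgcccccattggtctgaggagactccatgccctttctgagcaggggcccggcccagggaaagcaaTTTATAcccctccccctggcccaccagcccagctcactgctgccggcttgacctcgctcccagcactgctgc
Tnnc2: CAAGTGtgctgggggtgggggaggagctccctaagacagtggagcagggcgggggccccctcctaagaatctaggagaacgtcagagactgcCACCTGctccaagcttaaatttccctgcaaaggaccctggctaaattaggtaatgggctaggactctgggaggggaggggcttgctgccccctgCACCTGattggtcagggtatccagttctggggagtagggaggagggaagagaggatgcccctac

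An E-box was present in 6 of the 7 promoters, that of Tnni3 being the exception, and in 65.5% of all 33469 rat promoters of this length, so that its presence is common. The Tnnt1 promoter held CAGATG and CAGGTG close together, 163 and 156 bases before the start, and TATAAA at 30 bases. The Tnni2 promoter held CAGGTG at 164 bases and TTTATA, the same TATA letters on the other strand, at 72 bases. The Tnnc2 promoter held E-boxes at 250, 158 and 64 bases. Among the promoters not shown, the upstream promoter of Tnnt2 held the most E-boxes of the 7, at 211, 199, 148 and 42 bases. Its downstream promoter held CAGTTG at 200 bases, and Tnnt2 counts overlapped between the groups. TATAAA was found in 2 of the 7 promoters and in 12.9% of all. The form CAGCTG, which is also an E-box, and the M-CAT letters CATTCC were each found in 1 of the 7, the upstream promoter of Tnnt2, and in 12% and 12.1% of all. The MEF2 site was not found in the 7 windows and was present in 2.96% of all promoters. These matches are letters in a short window and no measurement of binding.

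The troponins were then set beside their partners on the thin filament, from a list that was written with earlier results of these data known. Of 16 listed genes 14 were in the tables and 13 were tested. By the same criteria 8 rose, against 4.9% of all genes tested, and the list median log2 fold change was 3.97. Of the 8, Actn2, Lmod3 and Klhl40 passed the filter on low counts through the LP samples alone, so the share is for scale only. Neb, the nebulin that runs along the thin filament, was counted 27, 21 and 30 times in NP against 3990, 4114 and 3963 times in LP, with a log2 fold change of 7.12 (standard error 0.086). Actn2 and Actn3, the actinins that anchor thin filaments in the Z-disc, had values of 8.60 and 6.10. Lmod3, which builds thin filaments in skeletal muscle, was at 0 reads in NP and had 176, 143 and 167 in LP, at least 146-fold higher when 3 reads over the NP group are taken as the floor. Klhl40 and Klhl41, which stabilise thin filament proteins, rose by 7.09 and 5.82, and the tropomodulins Tmod4 and Tmod1, which cap filament ends, by 3.97 and 2.01.

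The other 5 tested genes of the thin filament, Acta1, Tpm1, Tpm2, Tpm3 and Cfl2, did not meet the criteria. With the replicate number as a block, Tpm2 did (log2 fold change 1.26), and the other 4 did not. All 5 had their lowest count in replicate 1 of each group, Tpm3 by the least (124, 145 and 155 reads in NP, 194, 226 and 241 in LP). Acta1, skeletal actin, was at 0 reads in replicate 1 of both groups and had 144 to 186 reads in the other samples. Tpm2, a tropomyosin of slow and smooth muscle, was counted 10, 613 and 615 times in NP against 702, 1248 and 1263 times in LP, a log2 fold change of 1.24 (adjusted p = 0.076 in edgeR's test). Tpm1, Tpm2, Tpm3 and Cfl2 were each higher in LP than in NP within every replicate number. The smooth muscle markers were also lowest in replicate 1, and their part in these values was not tested. The skeletal troponins did not follow this pattern, the LP level of Tnnc2 being 1460 CPM in replicate 1 and 1349 and 1382 CPM in the others.

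Partners of fast and of slow fibres were listed separately, also with earlier results of these data known. The lists were not tested against each other. Of 11 listed fast fibre genes 9 were in the tables and 6 were tested. All 6 rose, against 4.9% of all genes tested. Of these, Myh1, Myl1, Pvalb and Myoz1 lay below the level of the filter (3.23 CPM) in every NP sample. They passed it through the LP samples alone, so the share is printed for scale only. The median log2 fold change of the 6 was 6.97 (6.37 with the gene at 0 reads in NP set to its lower bound). Atp2a1, the calcium pump of fast fibres, was counted 10, 11 and 13 times in NP against 3825, 3745 and 3782 times in LP. Its log2 fold change was 8.22 (standard error 0.086). Myl1, a fast myosin light chain, had a value of 7.83, Pvalb, the calcium buffer parvalbumin, 6.03, and Myoz1 5.41. Of the 3 genes below the filter, Mylpf had 0 reads in NP and 9, 15 and 13 in LP, Casq1, a calcium store protein, had 0, 4 and 2 against 0, 2 and 1, and Mybpc2, the fast myosin-binding protein C, had 0, 1 and 3 against 0, 1 and 1. Casq1 and Mybpc2 thus overlapped between the groups at very low counts. Myh1, a fast myosin heavy chain, was at 0 reads in NP and was counted 119, 105 and 109 times in LP.

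Of 11 listed slow fibre genes 8 were in the tables and 6 were tested, and 5 rose, against 4.9% of all genes tested. Myl3, Mybpc1, Csrp3 and Sln passed the filter through the LP samples alone, so this share too is for scale only. The median log2 fold change of the 6 was 6.94, or 4.94 with the genes at 0 reads in NP set to their lower bounds. Csrp3, a Z-disc protein, and Sln, a regulator of the calcium pump, had values of 6.22 and 7.82. Myl3, the slow and ventricular light chain, and Mybpc1, the slow myosin-binding protein C, were at 0 reads in NP, and LP was at least 24.0-fold and 39.4-fold higher. Atp2a2, the calcium pump of slow fibres and the heart which other cells also use, rose by 1.06 (standard error 0.097). Tpm3, a tropomyosin of slow fibres and of other cells, had a value of 0.49 and did not meet the fold criterion. Both of these genes had more than 100 reads in each NP sample, whereas the 4 other tested slow fibre genes had at most 1 read there. The summed level of the slow fibre list therefore differed less (98.3 to 127 CPM in NP, 261 to 289 CPM in LP) than that of the fast fibre list (11.5 to 13.5 CPM in NP, 1751 to 1919 CPM in LP).

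**Figure D4:**
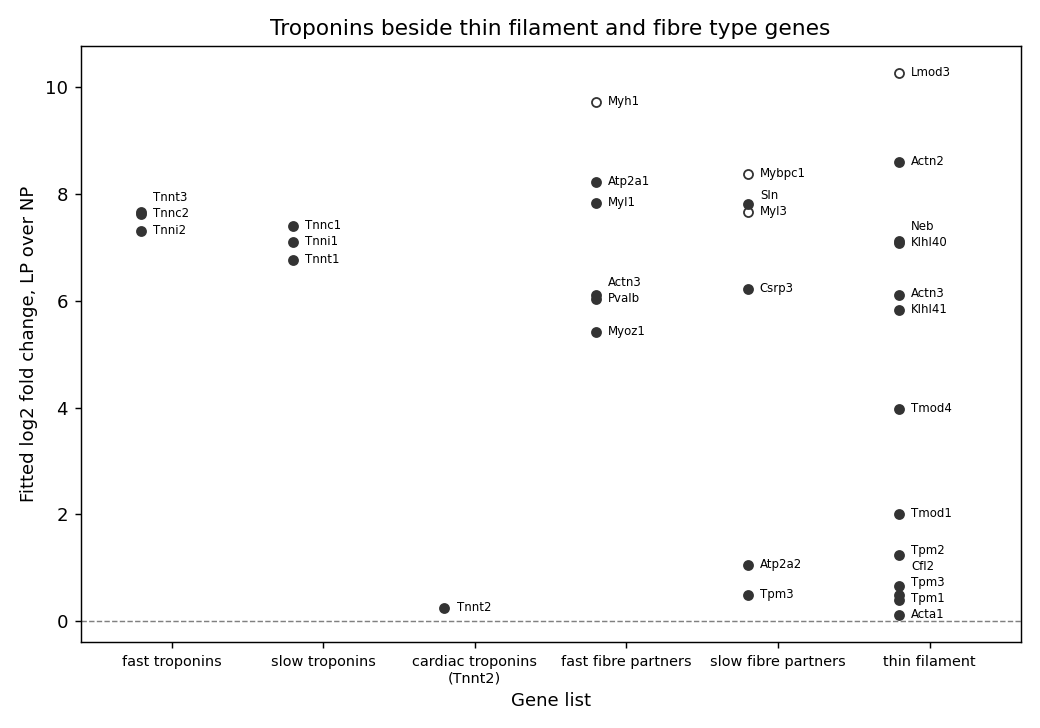
Fitted log2 fold change (LP over NP) of the tested troponins and of the tested genes of the fast fibre, slow fibre and thin filament lists, 1 point a gene. Open circles are genes at 0 reads in NP, whose fitted value depends on how the fit treats 0. The fast and slow troponins lie together between 6.76 and 7.66, and Tnnt2 lies near 0. The fast fibre, slow fibre and thin filament genes each span a wider range that holds these values.

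The genes whose profile over the 6 samples came closest to that of the troponins were also found, by the Euclidean distance between centred log2 CPM values. Nearest to the summed fast troponins were Xirp2 (distance 0.52), Atp2a1 (0.64), Neb (0.69), Tcap (0.72) and Actn2 (0.78). Xirp2, a protein of muscle attachment sites, was counted 4 times in each NP sample against 1424, 1443 and 1393 times in LP. Nearest to the summed slow troponins were Myom3 (0.48), Txlnb (0.54), Hrc (0.66), Myl1 (0.76) and Hfe2 (0.78). Myom3, an M-band protein, was counted 4, 4 and 1 times in NP against 486, 439 and 461 times in LP. The order among such genes depends on how low NP counts are treated, and with a prior count of 0.5 in place of 2 the lists of 5 shared 1 gene for the fast and 2 for the slow troponins.

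Markers of other tissues were measured beside the troponins. Of 20 skeletal muscle markers 14 were in the tables and 12 were tested, and 10 rose, against 4.9% of all genes tested. Of the 10, Tcap, Ryr1, Cacna1s, Myh1, Pvalb, Ckmt2 and Eno3 passed the filter on low counts through the LP samples alone. The share is therefore for scale only. The summed level of the 14 was 39.1 CPM in NP replicate 1 and 204 and 190 CPM in NP replicates 2 and 3. In LP it was 4298 to 4415 CPM. Among the defining markers, Myh1 and Mylpf were at 0 reads in every NP sample, and Ryr1, the calcium release channel of skeletal muscle, was counted 6, 7 and 3 times in NP against 1439, 1485 and 1524 times in LP. The median log2 fold change of the 12 markers was 7.53, or 6.88 with Myh1 at its lower bound, beside 7.36 for the 6 skeletal troponins. The others did not all rise. Acta1 and Pygm, the muscle glycogen phosphorylase, were tested and overlapped between the groups, with log2 fold changes of 0.11 and 0.29, and Casq1 had at most 4 reads in any sample. As a sum, the skeletal muscle markers moved with the skeletal troponins, and their part in the result was not tested.

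Of 14 heart markers 10 were in the tables, with a summed level of 92.4 to 103.6 CPM in NP and 111 to 119 CPM in LP, with Hcn4, a pacemaker channel, as the largest contributor in each sample. Mybpc3, the cardiac myosin-binding protein C, had 1 read in 1 sample of each group, and Myl7, the atrial light chain, had 0 reads in NP and 0, 1 and 1 in LP. Myl4, a light chain of the atria and of immature muscle, was the 1 gene of the 4 tested that rose, by 4.93 (standard error 0.43), from 1, 0 and 3 reads to 38, 56 and 53. Myl4 passed the filter on low counts through the LP samples alone. Of 8 markers of satellite cells and regenerating muscle 4 were in the tables. Pax7, of muscle stem cells, had 0 reads in NP and 3, 5 and 3 in LP. Myf5 and Myod1 also had 0 reads in NP, with 0, 3 and 2 and 1, 2 and 0 in LP, so both overlapped between the groups. Ncam1, the 1 gene of the 4 that was tested, had a log2 fold change of 0.40 and did not meet the criteria.

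Markers of the gland itself differed far less between the groups. Summed levels were 231895 to 250357 CPM in NP and 242271 to 258827 CPM in LP for 10 follicular cell markers, and 13844 to 14820 against 12252 to 13011 CPM for 5 C cell markers. The 3 parathyroid markers, of glands that lie on the thyroid, summed to 4474 to 4848 CPM in NP and 3730 to 4045 CPM in LP. Adipocyte markers overlapped between the groups, at 83.4 to 105 CPM and 97.0 to 116 CPM. Airway epithelium markers summed to 23.1 to 27.3 CPM in NP and 39.9 to 47.6 CPM in LP. This difference had the direction of that in the skeletal troponins but was far smaller. The summed heart, satellite cell and cartilage markers were also higher in every LP sample than in any NP sample. The part of these lists in the result was not tested. Tg had a log2 fold change of 0.06 and made up most of the follicular sum (241790 of 250357 CPM in NP replicate 1). The sum therefore says little about the other follicular markers. Slc5a5, the iodide transporter, had a value of -0.94 and Tshr, the receptor of thyroid stimulating hormone, of -0.68. Both were lower in every LP sample than in any NP sample, while 3 of the 10 markers were higher in every LP sample. None of the 10 met the criteria for a call. Slc5a5 and Tshr missed the fold criterion alone, with adjusted p of 3.08e-10 and 3.99e-07 in edgeR's quasi-likelihood test. So did the 3 higher markers, Nkx2-1, Duox2 and Duoxa2 (adjusted p 0.0021, 0.0095 and 0.0014 in that test).

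**Figure D5:**
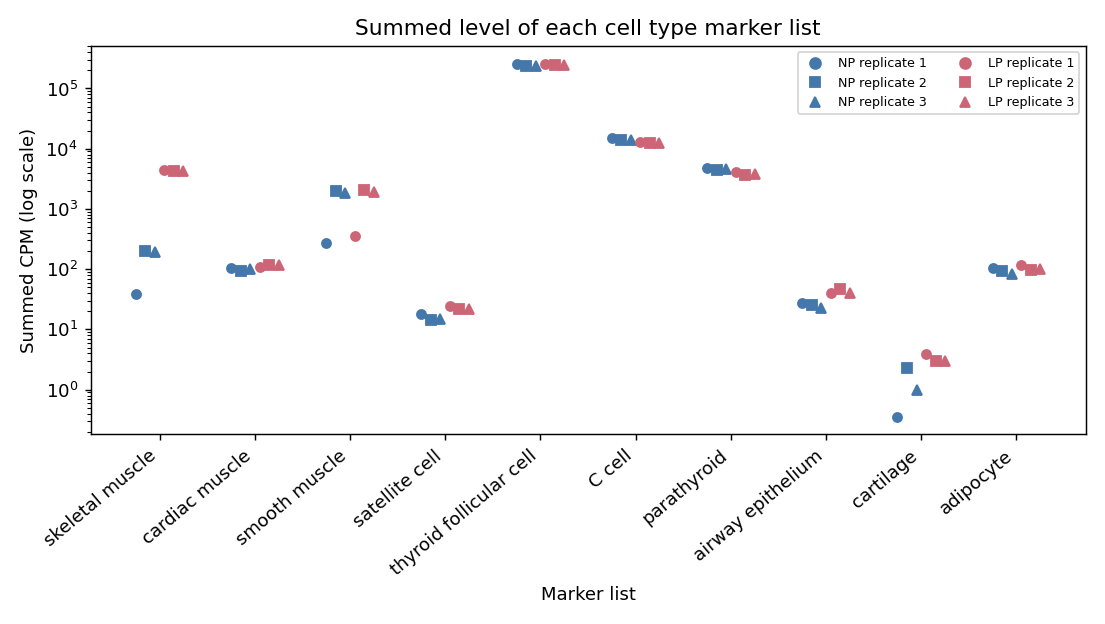
Summed CPM of each cell type marker list in each sample, on a log axis, with colours for the group and symbols for the replicate. Skeletal muscle markers separate LP (4298 to 4415) from NP (39.1 to 204), and smooth muscle markers separate replicate 1 of both groups from the other samples.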

How the data were processed

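RNA of 6 thyroid samples, 3 NP and 3 LP, was analysed. Per the paper's methods and the submitters' processing notes, the authors mapped reads to rn5 with TopHat 1.4.0, counted them with HTSeq-count on Ensembl gene models and deposited raw counts without normalization. Strand and transcript choice are not given in the sources used here.

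The counts were read in R 4.3.3. LP was compared with NP by edgeR 4.0.16 (quasi-likelihood test, TMM, default filter, Benjamini-Hochberg adjustment over 11738 genes), and DESeq2 1.42.0 was an alternative. Genes were called at more than 2-fold with an adjusted p under 0.05. Standard errors are the absolute log2 fold change over the root of F. Tnni3, below the filter, has no fitted value printed. Ratios use summed reads over TMM-scaled totals with exact binomial intervals, and ratios of ratios use exact conditional intervals. The steps were tested on simulated data.

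Same-numbered NP and LP samples deviated together from their group means (correlations of 0.493, 0.223 and 0.192 across genes), so the numbers were taken as pairs and used as a block in an alternative. The crossed pairs of replicates 2 and 3 gave 0.216 and 0.216, so the data set pair 1 apart but do not tell pair 2 from pair 3. The labels name no pairing.

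The members, lists and tests were chosen with earlier results of these data known. Named are the 8 troponins, list genes with the largest and smallest change, defining markers, Tg and Slc5a5, and the 5 genes nearest in profile to the fast and to the slow troponins; other genes were named after their values were seen. An item that the rule also names is not reported here. Sequences are from RefSeq (GRCr8).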

Additional observations from a re-analysis of the deposited data

How the results depend on the processing

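With each replicate left out in turn, and without replicate 1 of both groups, the fast minus slow difference in log2 fold change ran from -0.92 to 0.72 for troponin C, from -2.50 to 1.12 for troponin I and from 0.15 to 1.61 for troponin T. NP replicates 1 and 2 decide the sign for I and C, because they hold most of the few slow reads of NP. The value of -2.50 is fitted against 0 Tnni1 reads in NP, depends on how the fit treats 0 and is no bound. The fast share of troponin C reads in LP ran from 91.8% to 92.1%. The replicate block changed no call among the troponins. It gave 576 genes higher and 65 lower over all genes, against 575 and 63, and 9 in place of 8 thin filament genes, Tpm2 being the one gained. The 6 skeletal troponins kept their direction and their call in every alternative setting that gave a value. There were 16 such settings for each gene and 15 for Tnnt1. As the members were chosen on this contrast, this is description and no test. A minimum mean of 50 reads, which tests fewer genes, left 286 genes higher, 29 lower and 2 slow fibre genes higher, and left out Tnnt1, Tnnt2 and Tnni3. With the fold change itself tested against 2, 366 were higher and 23 lower. Summing replicates 2 and 3 before the fit gave 606 higher and 63 lower. With a prior count of 0.5, 1 of the 5 genes nearest to the fast and 2 of the 5 nearest to the slow troponins stayed. Shares per kilobase of coding length were not run, because coding lengths were not at hand. The NP side rests on 87 fast and 10 slow reads, which is what limits the comparison of fast with slow.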

Other observations

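Acta1 and Igfbp1 were the 2 genes at 0 reads in replicate 1 of both groups with at least 50 reads in each of the other 4 samples. Acta1 was at 0 in LP replicate 1 although that sample held 3990 reads of Neb. Igfbp1 had 127 and 109 reads in NP replicates 2 and 3 and 151 in both LP replicates 2 and 3. Among smooth muscle genes, Actg2 was counted 4, 610 and 542 times in NP against 5, 641 and 595 times in LP, so that the difference between replicates was far larger than that between groups. Synpo2 was the 1 of the 8 smooth muscle markers that rose in LP, from counts of 19, 120 and 107 in NP to 452, 539 and 551 in LP, a log2 fold change of 2.50 (adjusted p = 1.60e-07 in edgeR's quasi-likelihood test).

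Some airway genes were also higher in LP. Of 6 listed airway markers 5 were in the tables and 4 were tested, and 3 rose, against 4.9% of all genes tested. The 3 that rose, Scgb1a1, Scgb3a1 and Bpifa1, passed the filter on low counts through the LP samples alone. The share is therefore for scale only. Scgb3a1, a secretoglobin of airway epithelium, was counted 2, 2 and 4 times in NP against 28, 26 and 34 times in LP, a log2 fold change of 3.25 (adjusted p = 2.39e-06 in edgeR's quasi-likelihood test), and Krt5, of basal cells, had a value of -0.04. Of 5 cartilage markers 3 were in the tables, and they summed to 0.359 to 2.30 CPM in NP and 2.98 to 3.85 CPM in LP.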
